A study of Mus musculus with 6 samples.

Results

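Expression of 10 genes that carry iron into the cell, store it and sense it was examined in mouse fetal liver erythroid progenitors with a DNA-binding mutant of SCL. The genes were Tfrc, Tfr2, Slc11a2, Steap3, Fth1, Ftl1, Ireb2, Aco1, Slc40a1 and Exoc6. They were chosen by name, with earlier results of these data known. Every probe annotated to them was taken, which gave 18 of the 46632 probes on the array. Red cell precursors take up iron bound to transferrin, which the receptor encoded by Tfrc carries into endosomes. There the iron is reduced by Steap3 and leaves through the divalent metal transporter encoded by Slc11a2. Iron that is not built into haem is stored in ferritin shells of Fth1 and Ftl1 chains or exported by ferroportin, the product of Slc40a1. The iron regulatory proteins, encoded by Aco1 and Ireb2, bind iron-responsive elements in several of these mRNAs when iron is scarce, which stabilises Tfrc mRNA and blocks translation of ferritin mRNA.

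The study compared total RNA of SclRER/RER progenitors, in which SCL (the product of Tal1) carries an altered DNA-binding domain, with that of wild-type (WT) progenitors, to find genes that need SCL itself to bind DNA. Both genotypes are labelled C57Bl/6, and fetal liver cells of E12.5 embryos were grown in culture for 3 days before Ter119-negative cells, those without a surface marker of maturing red cells, were purified. Each genotype had 3 single-colour bead arrays. Whether the samples within a genotype are separate embryos or cultures is not stated in the labels. The p-values therefore reflect the spread between the arrays alone, and that spread may be technical. In these bulk samples, fewer cells of a type and less RNA per cell cannot be told apart.

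Mean signal lay between 385 and 546 intensity units per array, and 11084 to 12678 probes per array were detected (detection p below 0.01). Both upper values belong to SclRER/RER array 1, and the next highest were 457 units on WT array 2 and 11495 probes on WT array 1. Probes detected on at least 3 of the 6 arrays were tested, 11578 in all. Of 9 erythroid markers with a probe, 9 were measured above background, and in SclRER/RER Slc4a1 fell by 2.35 and Epor fell by 0.54 on the log2 scale (limma adjusted p = 0.00202 and 0.0199). Epor lost its call with median scaling and without SclRER/RER array 2 or any WT array. The other erythroid markers did not pass. Klf1 and Hba-a1 had higher means in SclRER/RER (differences of 0.33 and 0.09, limma adjusted p = 0.116 and 0.765). Alas2, Tfrc, Rhag, Gata1 and Ermap had lower ones, with differences from -0.57 for Alas2 to -0.09 for Ermap. The erythroid list holds Tfrc, and the summed level of its other 8 markers was 47462 to 51964 intensity units in SclRER/RER and 50027 to 54706 in WT. Of 9 macrophage markers, 0 were detected on any array. Of 10 hepatocyte markers 1 was measured above background, Apoa1, and Alb and Afp were not detected. The summed level of that list was 625 to 976 in SclRER/RER and 1093 to 1127 in WT. All these sums are of linear levels, so the brightest marker of a list weighs most. In the hepatocyte list that was Apoa1, which did not pass (difference -0.49, limma adjusted p = 0.264). In the erythroid list it was Hba-a1, whose mean log2 level of 14.86 lay close to the highest value of any probe, 15.26. Megakaryocyte markers, 3 of 6 above background, summed to 703 to 1371 in SclRER/RER and 2013 to 2552 in WT, and mast cell markers, 2 of 6, to 871 to 1009 and 675 to 728. Among these, Pf4 and Ppbp were lower (differences of -1.31 and -1.88) and Cpa3 higher (1.07) in SclRER/RER, with limma adjusted p of 0.0207, 0.000245 and 0.0127. Gp5 and Hdc, the brightest of the megakaryocyte and the mast cell markers, did not pass (-0.87 and 0.28, limma adjusted p = 0.083 and 0.223). Pf4 lost its call without WT array 2 or 3 and with no detection filter, and Cpa3, detected on 1 of the 3 WT arrays, without WT array 2 and with no detection filter. The part of these lists in the results below was not tested.

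No probe of the 10 chosen iron genes passed the limma test between the genotypes, and Tfrc came nearest. Of the 18 probes 14 were tested, at least 1 for each gene, and 0 passed the limma test at an adjusted p of 0.05, against 6.58% of all tested probes. At an unadjusted p of 0.05, 1 of the 14 passed, against 19.6% of all tested probes. The same probe, that of Tfrc, was the only one of the 14 whose values did not overlap between the genotypes, as held for 24.5% of all tested probes. Of the 14, 7 had a higher mean in SclRER/RER and 7 a lower one. Their median difference was -0.0019 on the log2 scale (SclRER/RER minus WT), beside 0.0032 over all tested probes. The median size of the difference, without its sign, was 0.075, beside 0.15 over all tested probes.

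**Figure D1:**
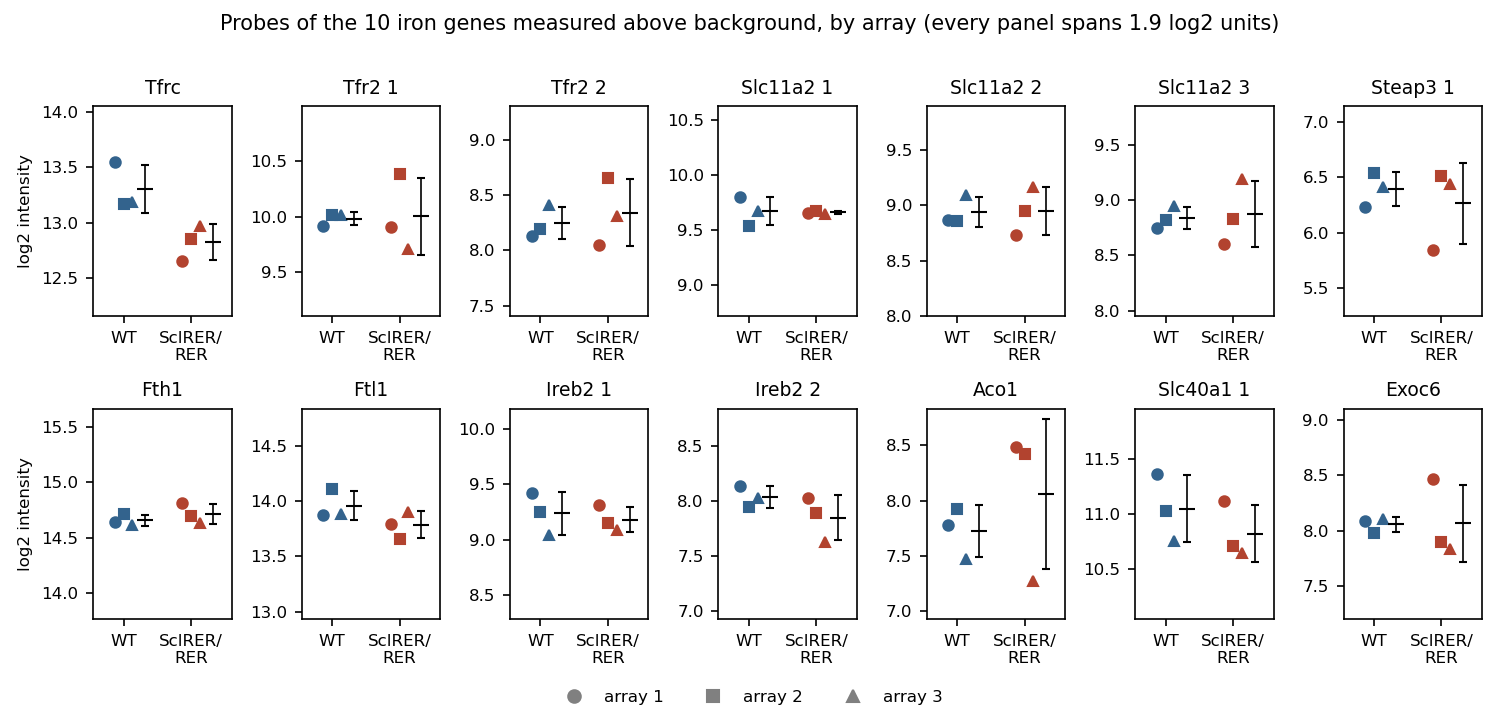
Log2 intensity (vertical axis) of the 14 tested probes of the 10 iron genes on each array, with WT in blue and SclRER/RER in red, 1 marker shape per array number (the labels do not say whether the numbers pair arrays), and mean ± SD as black bars. Probes of 1 gene are numbered from the brightest. Only for Tfrc do the genotypes not overlap, and the SclRER/RER arrays lie far apart for Aco1.

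Tfrc, the receptor that takes up transferrin-bound iron, had the largest difference of the 14 probes. On the log2 scale it was measured at 12.65, 12.85 and 12.97 on SclRER/RER arrays 1 to 3 and at 13.55, 13.17 and 13.19 on WT arrays 1 to 3. All SclRER/RER values lay below all WT values, with a gap of about the size of the spread within a genotype. The Tfrc mean was 12.83 ± 0.16 for SclRER/RER and 13.30 ± 0.22 for WT (mean ± SD, n = 3 each), a difference of -0.48 (SE 0.15, 95% confidence interval -0.81 to -0.14). This is a 1.39-fold higher level in WT. It did not pass the test over all probes (limma adjusted p = 0.105, unadjusted p = 0.0109). A two-sided exact permutation test on the 6 arrays gave 0.1, the smallest p that 3 arrays against 3 allow. The difference was larger in size than that of 87.9% of all tested probes.

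The Tfrc value stayed negative under all 17 alternative settings, from -0.55 to -0.33, and passed under 1 of them. With a variance prior that follows the intensity, the limma adjusted p was 0.0379, and over the 17 it ranged from 0.0379 to 0.928. On the authors' normalized values the difference was -0.48 (limma adjusted p = 0.0553). With arrays scaled to equal medians it was -0.33 (limma adjusted p = 0.928), a setting under which the median over all tested probes moved to 0.11.

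Promoter letters are shown for the pair of transferrin receptors and for Aco1, since SCL binds E-boxes (CANNTG) and works with GATA factors. The sequences are the 250 bases before the most upstream start of each gene in RefSeq (GRCm38.p6), in lower case with CANNTG, and GATAA on either strand, in capitals. Of the 10 genes 8 matched an entry. CANNTG was present in 5 of the 8, and in 66.05% of 27025 genes with a window of the same length. GATAA was present in 3 of the 8, and in 22.98% of those genes. The 3 were Steap3, Fth1 and Exoc6, which also held CANNTG and whose windows are not shown. The Tfrc window, chr16:32608646-32608895 on the plus strand, held 1 CANNTG, spelled CACCTG and ending 96 bases before the start, and no GATAA. The Tfr2 window, chr5:137569590-137569839 on the plus strand, held neither. Tfrc has 2 listed starts and Tfr2 has 3, and only the window of the most upstream was read. Matches of letters are a description and do not show binding.
Tfrc: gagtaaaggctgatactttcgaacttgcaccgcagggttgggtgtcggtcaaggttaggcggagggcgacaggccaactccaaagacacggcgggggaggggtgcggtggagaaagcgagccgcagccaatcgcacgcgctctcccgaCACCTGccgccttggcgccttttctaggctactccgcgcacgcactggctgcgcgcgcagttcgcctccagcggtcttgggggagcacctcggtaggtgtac
Tfr2: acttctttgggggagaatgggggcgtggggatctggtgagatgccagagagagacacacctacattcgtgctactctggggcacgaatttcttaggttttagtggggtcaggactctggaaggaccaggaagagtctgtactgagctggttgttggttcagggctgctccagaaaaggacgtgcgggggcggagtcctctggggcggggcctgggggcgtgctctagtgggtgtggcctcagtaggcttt

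Tfr2 encodes the other transferrin receptor, which in erythroid cells is also a partner of the erythropoietin receptor. Its brighter probe was measured at 9.91, 10.39 and 9.71 in SclRER/RER and at 9.91, 10.02 and 10.01 in WT. The genotypes overlapped, and SclRER/RER array 2 was the highest of the 6. The difference was 0.02 (SE 0.17, 95% confidence interval -0.37 to 0.41, limma adjusted p = 0.971). On the dimmer probe, SclRER/RER arrays read 8.05, 8.66 and 8.31 and WT arrays 8.13, 8.19 and 8.41, a difference of 0.09 (SE 0.17, limma adjusted p = 0.832). SclRER/RER array 2 was again the highest, and without it both probes were slightly lower in SclRER/RER, by -0.17 and -0.07. The interval of the brighter probe allows a change between 0.772-fold and 1.33-fold.

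Exoc6 encodes a subunit of the exocyst, a tether of vesicles at the membrane, and is the gene altered in the haemoglobin-deficit mouse, whose reticulocytes recycle transferrin poorly. It was measured at 8.47, 7.89 and 7.84 in SclRER/RER and at 8.08, 7.98 and 8.11 in WT. SclRER/RER array 1 lay above all WT arrays and the other two lay below them. The means were 8.07 ± 0.35 and 8.06 ± 0.07 (n = 3 each), a difference of 0.01 (SE 0.17, 95% confidence interval -0.39 to 0.40, limma adjusted p = 0.987). Without SclRER/RER array 1 it was -0.19 (limma adjusted p = 0.480).

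Slc11a2, the transporter that moves ferrous iron out of the endosome, had the narrowest interval among the uptake genes. Its brightest probe read 9.66, 9.67 and 9.65 in SclRER/RER and 9.80, 9.54 and 9.68 in WT. The 3 SclRER/RER values lay inside the WT range, and their SD of 0.012 was smaller than that of all but 0.354% of tested probes. The difference was -0.01 (SE 0.11, 95% confidence interval -0.27 to 0.25, limma adjusted p = 0.974), which allows a change between 0.828-fold and 1.19-fold. The other probes of Slc11a2, designed on cDNA clones, differed by 0.01 (SE 0.14) and 0.04 (SE 0.16), with limma adjusted p of 0.987 and 0.934. On both of these probes SclRER/RER array 1 was the lowest and SclRER/RER array 3 the highest of the 6. The sources used here do not give which splice forms each probe reads.

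Steap3, the ferrireductase of the erythroid endosome, was at the edge of detection. Of its 4 probes, the pair designed on its RefSeq mRNA and a clone-based probe were detected on 0 of the 6 arrays. The fourth, also clone-based, was detected on 2 of the 3 arrays of each genotype and read 5.85, 6.51 and 6.44 in SclRER/RER and 6.23, 6.54 and 6.41 in WT. Its lowest value, on SclRER/RER array 1, was below that array's detection limit of 5.97. The difference was -0.13 (SE 0.19, limma adjusted p = 0.787), and -0.11 with values raised to the detection limit of their array. No fold is given for the undetected probes.

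**Figure D2:**
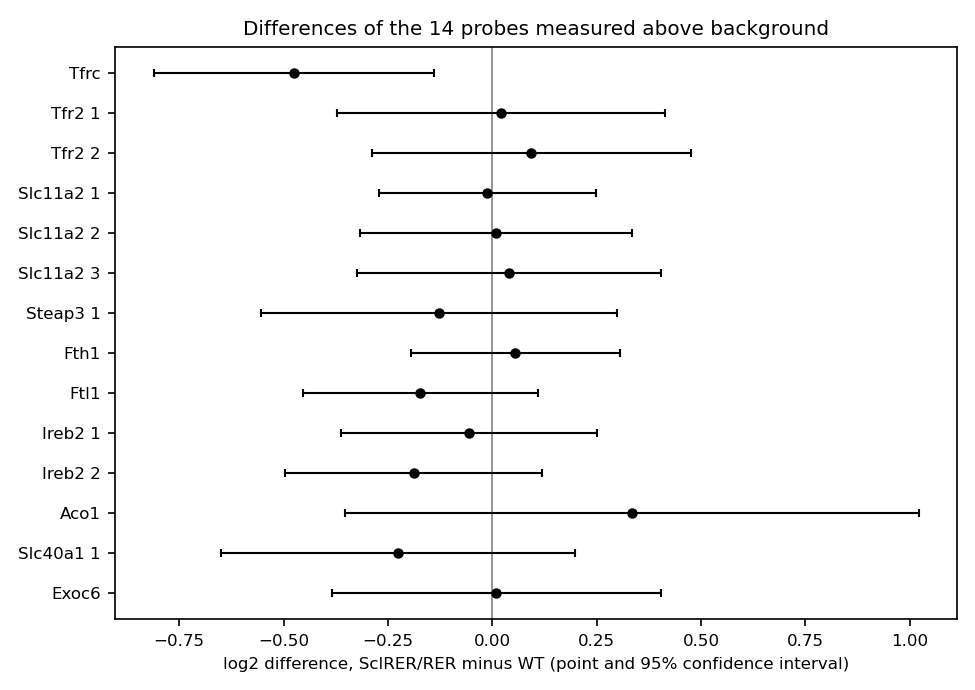
Log2 difference between the genotypes (horizontal axis, SclRER/RER minus WT) for the 14 tested probes of the 10 iron genes, with 95% confidence intervals from limma as bars. The interval of Tfrc, -0.81 to -0.14, is the only one that does not hold 0, before adjustment over all probes. The interval of Aco1 is the widest.

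Neither ferritin chain passed the test. Fth1, the heavy chain that oxidises iron for storage, read 14.81, 14.70 and 14.63 in SclRER/RER and 14.64, 14.72 and 14.62 in WT. The genotypes overlapped, with means of 14.71 ± 0.09 and 14.66 ± 0.05 (n = 3 each). The difference was 0.05 (SE 0.11, 95% confidence interval -0.20 to 0.31, limma adjusted p = 0.853). It was 0.0055 without SclRER/RER array 1, 0.097 without SclRER/RER array 3 and 0.21 with median scaling. Its mean lay only 0.58 below the highest value of any probe, 15.26, which leaves little room to measure a rise. Ftl1, the light chain that aids formation of the iron core, read 13.79, 13.66 and 13.90 in SclRER/RER and 13.88, 14.11 and 13.89 in WT. SclRER/RER array 3 lay inside the WT range and the other two lay below it. The difference was -0.17 (SE 0.12, 95% confidence interval -0.45 to 0.11, limma adjusted p = 0.524). It was -0.096 without WT array 2, -0.11 without SclRER/RER array 2, -0.27 with array weights and -0.016 with median scaling. Near-identical ferritin pseudogenes may share these probes' sequence, which was not tested.

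Slc40a1 encodes ferroportin, the iron exporter. Its detected probe read 11.11, 10.71 and 10.64 in SclRER/RER and 11.36, 11.03 and 10.76 in WT. The genotypes overlapped, and the SD within each was wide, 0.25 and 0.30. The difference was -0.23 (SE 0.19, 95% confidence interval -0.65 to 0.20, limma adjusted p = 0.589). It was -0.071 without WT array 1, -0.14 without SclRER/RER array 3 and -0.37 on leaving out either SclRER/RER array 1 or WT array 3, and -0.11 with median scaling. A clone-based probe of Slc40a1 was detected on 0 of the 6 arrays.

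Aco1, the iron-regulatory protein that doubles as cytosolic aconitase, had the widest spread of the 14 probes. It read 8.48, 8.42 and 7.28 in SclRER/RER and 7.78, 7.93 and 7.47 in WT. SclRER/RER arrays 1 and 2 lay above all WT arrays, and SclRER/RER array 3 lay below all of them. The SD in SclRER/RER, 0.68, exceeded that of 98.3% of tested probes, and the SD in WT was 0.23. The difference was 0.33 (SE 0.30, 95% confidence interval -0.35 to 1.02, limma adjusted p = 0.627). Without SclRER/RER array 3 it was 0.73 (limma adjusted p = 0.0291). Without SclRER/RER array 1 it was 0.12, without SclRER/RER array 2 it was 0.15 and without WT array 3 it was 0.21 (limma adjusted p between 0.866 and 0.897). It passed under no other of the 17 alternatives. The Aco1 window, chr4:40143015-40143264 on the plus strand, held 1 CANNTG, spelled CATCTG and ending 8 bases before the RefSeq start, and no GATAA.
Aco1: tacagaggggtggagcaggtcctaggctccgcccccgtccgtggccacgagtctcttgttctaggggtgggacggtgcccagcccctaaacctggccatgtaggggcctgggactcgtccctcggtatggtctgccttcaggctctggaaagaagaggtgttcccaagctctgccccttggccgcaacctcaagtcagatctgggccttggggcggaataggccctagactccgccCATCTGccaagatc

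**Figure D3:**
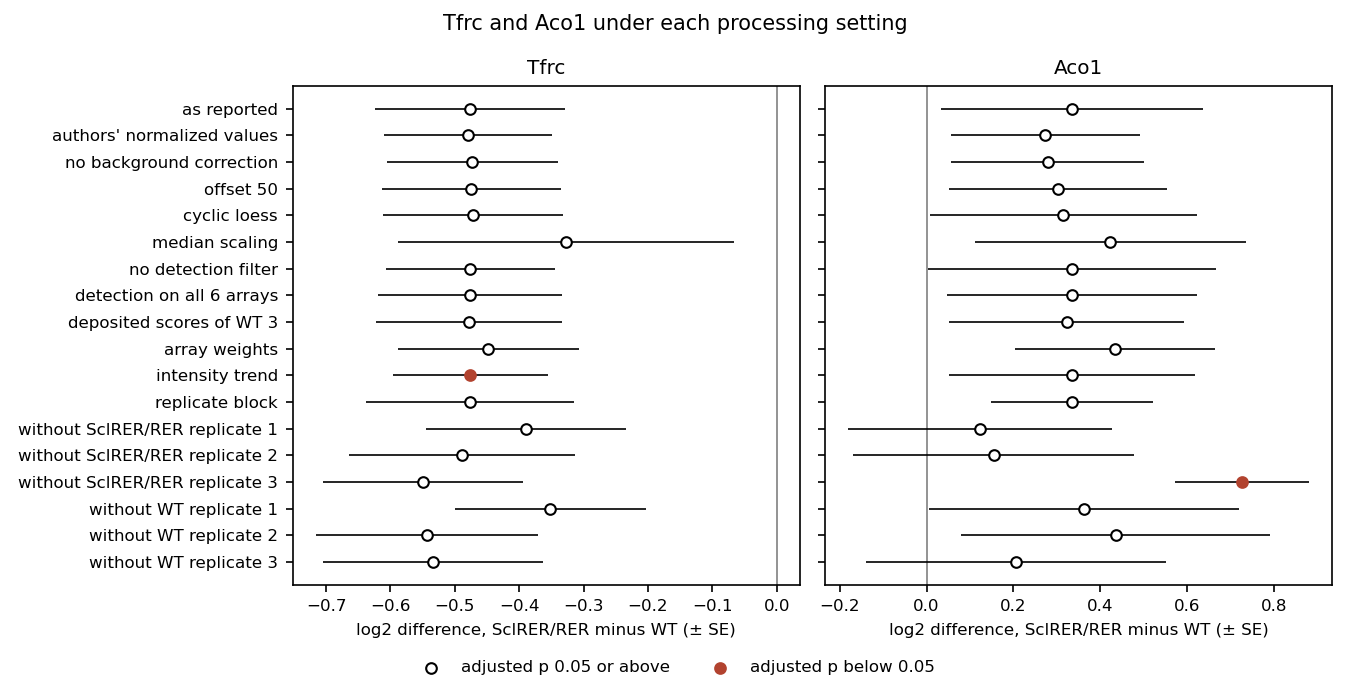
Log2 difference ± SE (horizontal axis, SclRER/RER minus WT) of Tfrc and Aco1 under the reported setting and 17 alternatives (rows), filled where the limma adjusted p was below 0.05. Tfrc lies between -0.55 and -0.33 and passes only with the intensity trend, while Aco1 runs from 0.12 to 0.73 and passes only without SclRER/RER replicate 3.

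Ireb2, the iron regulatory protein that is degraded when iron is plentiful, was measured by 2 probes that pointed the same way. The brighter read 9.31, 9.15 and 9.09 in SclRER/RER and 9.43, 9.25 and 9.04 in WT, a difference of -0.06 (SE 0.13, limma adjusted p = 0.884). The dimmer read 8.02, 7.89 and 7.63 in SclRER/RER and 8.14, 7.95 and 8.02 in WT, a difference of -0.19 (SE 0.13, 95% confidence interval -0.50 to 0.12, limma adjusted p = 0.521). Without SclRER/RER array 3 the difference on the dimmer probe was -0.078, and with median scaling it was -0.10. On both probes the genotypes overlapped. Its degradation acts on the protein, which arrays do not measure.

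The spread within a genotype differed between the groups for these probes as for the array at large. The median SD of the 14 probes was 0.24 in SclRER/RER and 0.13 in WT, beside 0.17 and 0.13 for all tested probes. The median SE of the difference was 0.15 for the 14 probes and 0.14 for all tested probes. The number of arrays limits the precision of every value above.

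Among other genes of iron handling, Vps35 was lower and Erfe higher in SclRER/RER. The genes stood in 5 lists of 43 in all, written with earlier results of these data known. Of the 43, 36 had a probe and 19 were measured above background, with 1 higher, 1 lower and 17 not passing. That compares with 6.58% of 6855 tested genes that passed (3.57% higher, 3.01% lower), each gene by its brightest tested probe. The median difference of the 19 was -0.05, beside 0.02 over all tested genes.

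**Figure D4:**
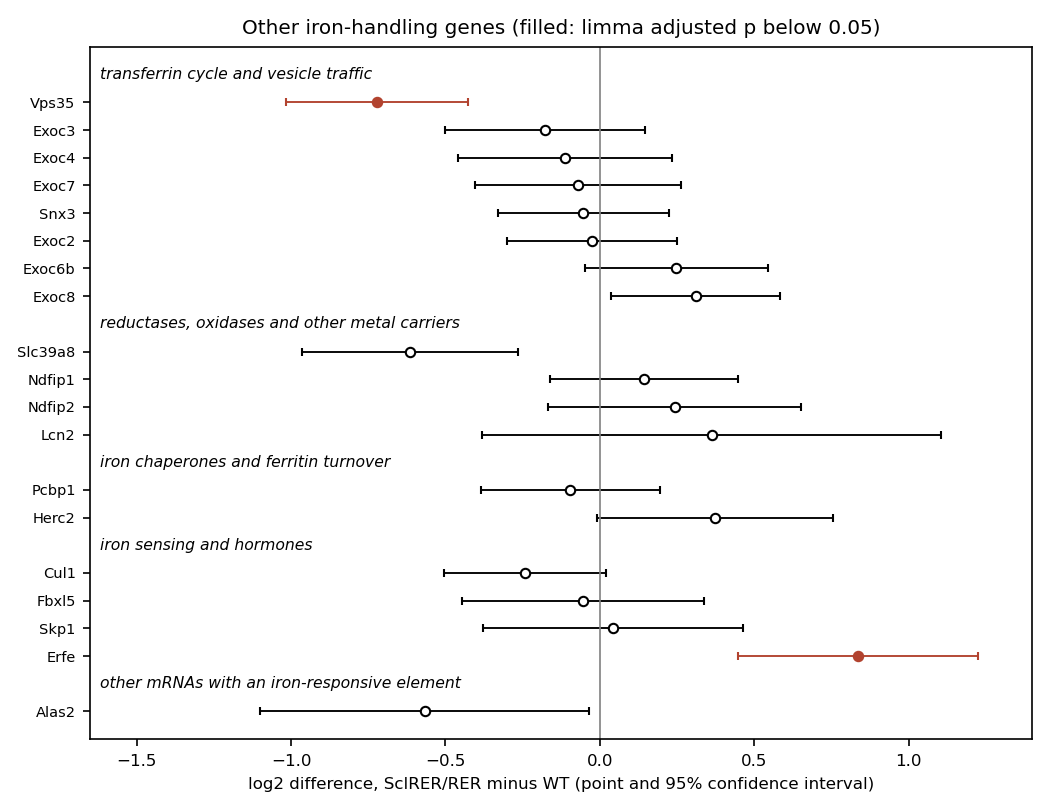
Log2 difference with 95% confidence interval (horizontal axis, SclRER/RER minus WT) of the 19 measured genes of the wider iron lists, grouped by list, with filled points where the limma adjusted p was below 0.05. Vps35, at -0.72, and Erfe, at 0.84, are the filled points.

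Transferrin cycle and vesicle traffic had 8 measured genes of 11 on the array, with 0 higher, 1 lower and a median difference of -0.06. Vps35, a core subunit of the retromer that returns the transferrin receptor from endosomes, read 12.25, 11.98 and 12.06 in SclRER/RER and 12.97, 12.81 and 12.67 in WT. All SclRER/RER values lay below all WT values. Vps35 fell by 0.72 on the log2 scale (SE 0.13, limma adjusted p = 0.0132). The call was lost without SclRER/RER array 2 (limma adjusted p = 0.0505), without WT array 2 (0.07) and with median scaling (0.443), while the value stayed between -0.80 and -0.58 over 17 alternatives. Of the 40 tested genes nearest to Vps35 along chromosome 8, 17.5% passed. The same share was 20% around Ftl1 and 22.5% around Herc2, genes on chromosome 7 that did not pass. Around the other tested iron genes it ran from 0% to 15.6%, with 7.5% around Erfe, so the highest shares are the ones picked out here. The part of gene position in these results was not tested. Snx3, which recruits retromer for the transferrin receptor, differed by -0.05 (SE 0.12, limma adjusted p = 0.875) on 1 tested probe of 2. Among the 6 exocyst subunits of the list that were tested, Exoc8 had the largest difference, 0.31 (SE 0.12, limma adjusted p = 0.190). Exoc8 and Exoc6b (0.25, SE 0.13, limma adjusted p = 0.352) did not overlap between the genotypes, as held for 24.5% of all tested probes. Exoc5, a further subunit, was too dim to be tested. Detection was reached on 2 WT arrays and on 0 SclRER/RER arrays, with measured means of 6.51 in WT and 5.90 in SclRER/RER. No fold is given, since the WT mean includes array 1, which at 6.18 lay below its own detection limit of 6.29. Trf, encoding transferrin, and Hfe, a partner of its receptor, were detected on 0 of the 6 arrays.

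Reductases, oxidases and other metal carriers had 4 measured genes of 12, and 0 passed, with a median difference of 0.19. Slc39a8, a zinc and iron importer of the ZIP family, read 7.81, 7.97 and 7.81 in SclRER/RER and 8.27, 8.79 and 8.38 in WT. Its values did not overlap, and its difference of -0.61 (SE 0.15, limma adjusted p = 0.0504) lay at the threshold. It passed under 9 of 17 alternatives, 1 of which used the authors' normalized values (limma adjusted p = 0.0405), and adjusted p ranged from 0.0343 to 0.546. On leaving out any single array it did not pass (limma adjusted p from 0.0515 to 0.170). Only 1 of the 2 Slc39a8 probes was bright enough to be tested. Lcn2, a siderophore carrier, differed by 0.36 (SE 0.33, limma adjusted p = 0.627), and by -0.05 without SclRER/RER array 1. Steap1, Steap2, Steap4 and Cybrd1, the other reductases listed, were detected on 0 of the 6 arrays.

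Iron chaperones and ferritin turnover had 2 measured genes of 4, and 0 passed. Pcbp1, which delivers iron to ferritin, differed by -0.10 (SE 0.13, limma adjusted p = 0.765). Herc2, a ubiquitin ligase for the ferritin receptor Ncoa4, differed by 0.37 (SE 0.17, limma adjusted p = 0.266).

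Iron sensing and hormones had 4 measured genes of 8, with 1 higher, 0 lower and a median difference of -0.0059. Erfe, the hormone erythroferrone by which erythroblasts lower hepcidin, read 9.23, 9.34 and 8.88 in SclRER/RER and 8.60, 8.16 and 8.19 in WT. All SclRER/RER values lay above all WT values. Erfe rose by 0.84 (SE 0.17, limma adjusted p = 0.0225) on 1 of its 2 probes, the other being too dim to be tested. The call was lost on leaving out SclRER/RER array 1 (limma adjusted p = 0.0503) or 2 (0.0754), or WT array 2 (0.118) or 3 (0.1003), and with no detection filter (0.0985). The value stayed between 0.72 and 0.98 over 17 alternatives. Fbxl5, the iron-sensing part of the ligase that degrades Ireb2 protein, differed by -0.05 (SE 0.17, limma adjusted p = 0.915) on 1 tested probe of 4. Cul1, a scaffold of that ligase, differed by -0.24 (SE 0.11, limma adjusted p = 0.292). Hamp, which encodes hepcidin, was detected on 0 of the 6 arrays.

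Alas2 was the 1 measured gene of the other mRNAs with an iron-responsive element. It encodes the first enzyme of erythroid haem synthesis, and its translation is blocked by the iron regulatory proteins. It read 10.19, 9.97 and 10.89 in SclRER/RER and 11.17, 10.77 and 10.80 in WT. SclRER/RER array 3 lay inside the WT range and the other two lay below it. The difference was -0.57 (SE 0.23, limma adjusted p = 0.225), with -0.84 without SclRER/RER array 3 (limma adjusted p = 0.0181) and -0.38 without SclRER/RER array 2 (0.462). Leaving out SclRER/RER array 3 moved both Aco1 and Alas2 past the threshold, and no other of the 17 alternatives did so for either gene.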

How the data were processed

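The authors deposited a non-normalized table of linear signal intensity, 1 value for each probe on each array, per the file headers; the values show no scaling between arrays. The columns headed as detection p-values rose with the signal, so these deposited values were taken as a fraction, 1 minus the p for detection. The column beside WT array 3 did not follow its signals (Spearman correlation 0.899, against 0.996 or more on the other arrays), and was replaced by the mean score of WT arrays 1 and 2 at equal signal rank. The authors' normalized intensity values share a median of 83.7 on each array and served as an alternative. The submitters' processing notes name limma with no role or version, and the sources used here do not give the scanner software.

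Background correction (normal-exponential model, parameters inferred from the detection values, offset 16), quantile normalization and the fit were run with limma 3.58.1 in R 4.3.3, and log2 values were fitted with genotype as the only term (lmFit, eBayes, two-sided). Adjustment (Benjamini-Hochberg) ran over the 11578 probes that reached a detection p under 0.01 on 3 or more arrays, and an adjusted p under 0.05 was the threshold. The steps were tested on simulated data with planted changes larger than any seen for the 10 iron genes. That test does not tell how often changes as small as theirs would be missed. Gene names came from the array's platform annotation, updated by gene identifier for 29921 of 29976 probes with 1 symbol; 10 had several and 16646 none. The build behind the probes was not given, so RefSeq coordinates are those of promoter windows only.

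Genes named were all 10 iron genes with every probe, every gene of the wider iron lists past the threshold with the 2 largest differences of each list, and cell type markers past the threshold. A few further list members and markers were named for their role, brightness or direction after their values were seen, as were the neighbour counts. The members and lists were chosen with earlier results of these data known.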

Additional observations from a re-analysis of the deposited data

How the results depend on the processing

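Over 17 alternatives to the background correction, offset, normalization, detection filter, variance model and arrays used, 0 of the iron probes passed except under 2 of them: 1 (Tfrc) with an intensity trend in the variance prior, and 1 (Aco1) without SclRER/RER replicate 3. The count thus ranged from 0 to 1 on leaving out single arrays. With the mean of all tested probes of a gene in place of the brightest, 0 of the 10 genes passed. The count over all tested probes, 762 as reported, was 398 with median scaling, 1209 with array weights and between 301 and 986 on leaving out single arrays, the lowest without WT replicate 2, with 343 without WT replicate 3 and 485 without SclRER/RER replicate 2. The causes were not tested.

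The differences that changed sign were small, apart from that of Lcn2. With median scaling, where all tested probes had a median of 0.11, the brightest Slc11a2 probe was at 0.11, the brighter Ireb2 probe at 0.052 and Pcbp1 at 0.047. With array weights the brightest Slc11a2 probe was at 0.028 and Exoc6 at -0.013, and with cyclic loess Exoc6 was at -0.0078. On leaving out single arrays, ranges that cross 0 were -0.17 to 0.17 and -0.065 to 0.24 for the Tfr2 probes, -0.078 to 0.053, -0.10 to 0.12 and -0.12 to 0.17 for the Slc11a2 probes, -0.25 to 0.082 for Steap3, -0.15 to 0.038 for the brighter Ireb2 probe, -0.19 to 0.12 for Exoc6 and -0.045 to 0.68 for Lcn2.

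The labels number the arrays of both genotypes 1 to 3. They do not say whether arrays of the same number are pairs. Deviations from the genotype means of same-numbered arrays correlated at 0.16, -0.03 and 0.07, and those of arrays with different numbers at -0.23 to 0.18. With 3 arrays per genotype these values cannot decide on pairing, and the main fit used no pairs. With a replicate block the SE of Tfrc was 0.16 and that of Aco1 0.19, beside 0.15 and 0.30 in the main fit. In the block fit 726 probes passed, 0 of them iron probes, and the limma adjusted p of Tfrc was 0.164. Slc39a8 passed in that fit (0.0403) and Pf4 did not (0.0533). Probes near background, such as those of Steap3, and Fth1 near the top of the range limit what could be measured.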
